A study of Mus musculus with 8 samples.

Results

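The Zbtb genes encode transcription factors that pair a BTB domain at one end of the protein with zinc fingers at the other. The members were the protein-coding genes of the RefSeq table for mm10 whose symbol is Zbtb followed by a number, with Zbtb7b left out, which gave 40 genes of the 21779 protein-coding genes used. One of them, Zbtb8os, carries the name because it lies beside Zbtb8a. It encodes archease, a cofactor of tRNA ligation, and is no zinc-finger factor, so 39 members fit the label by name. No protein sequence was used here, and the label was not checked further.

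BTB domains form dimers and recruit co-repressor complexes, and several also serve as adaptors for the ubiquitin ligase scaffold CUL3. The zinc fingers choose the DNA site. In lymphocytes, members of the family are known for lineage choice: ThPOK (Zbtb7b) and LRF (Zbtb7a) act in the CD4 lineage, PLZF (Zbtb16) directs innate-like T cells, and BCL6, a relative under another name, directs follicular helper T cells. Smad4, the protein immunoprecipitated here, is the SMAD shared by TGF-β and BMP signalling.

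Peaks came from Smad4 ChIP-seq in CD4+ T cells of spleen and lymph nodes from mice of C57BL/6 background, activated and treated for 12 h with IL6 and a TGFbR inhibitor. The WT group held 2 samples, both female. The KO group held 2 samples of genotype CD4cre;Smad4fl/fl, where Cre driven by Cd4 regulatory sequence acts in T cells and deletes the floxed Smad4. KO replicate 1 was a pool of males and females and KO replicate 2 was male, so the groups differ in sex as well as genotype, and effects of these cannot be told apart. The labels give no ages, and the source animals of each replicate are not named. The 4 input samples were not analysed here. Read depth is unknown, and the lists hold positions without heights or scores. WT replicates 1 and 2 listed 27120 and 19792 peaks, and KO replicates 1 and 2 listed 564 and 424. Among CD4 T cell marker genes, 7 of 7 had a WT-only region (defined below), against 2 of 5 B cell, 0 of 5 myeloid and 0 of 4 hepatocyte markers. Of all protein-coding genes, 44.3% had one. Cd3d, Cd3e and Cd3g are neighbours whose 10 kb flanks overlap, so the 7 genes are not separate places. The B cell gene Cd79a held 5 WT-only regions.

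A gene's territory is its body and 10 kb on both sides. Peaks sharing 1 bp or more were joined into one region, and a WT-only region is a merged region with a peak from both WT samples and none from either KO sample. Most Zbtb genes held such a region: 31 of 40 (77.5%), where 44.3% of all protein-coding genes and 47.3% of coding genes of the same territory lengths did. At gene ends, meaning within 1 kb of either end of the body, 23 of 40 members (57.5%) had a WT-only region, against 29.4% of all coding genes and 31.6% at the same lengths. These shares are descriptions with no test, and nothing here shows that they are particular to the family. KO peaks touched 2 members, Zbtb1 and Zbtb25 (5%, against 2.42% of all genes), through 1 peak that both share. That peak lies at a gene end of both, where 0.505% of all genes had a KO peak.

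The 4 members with the widest WT-only region over a promoter window, by peak width summed over both WT samples, are printed first. Each window runs from 250 bases before to 50 after a listed start (RefSeq, GRCm38.p6, which is mm10), 5′ to 3′ on the gene's strand. Capitals mark CAGAC, the core SMAD box, GGCGCC, a GC-rich SMAD motif, or CCGGAAG, an ETS motif, on either strand. A match is a description and not a shown site.
Zbtb7a: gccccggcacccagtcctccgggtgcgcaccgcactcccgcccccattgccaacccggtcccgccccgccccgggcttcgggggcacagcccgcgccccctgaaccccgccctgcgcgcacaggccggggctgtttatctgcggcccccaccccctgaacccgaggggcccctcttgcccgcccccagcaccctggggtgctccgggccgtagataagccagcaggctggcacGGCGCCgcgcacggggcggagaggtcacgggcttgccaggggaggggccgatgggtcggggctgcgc
Zbtb2: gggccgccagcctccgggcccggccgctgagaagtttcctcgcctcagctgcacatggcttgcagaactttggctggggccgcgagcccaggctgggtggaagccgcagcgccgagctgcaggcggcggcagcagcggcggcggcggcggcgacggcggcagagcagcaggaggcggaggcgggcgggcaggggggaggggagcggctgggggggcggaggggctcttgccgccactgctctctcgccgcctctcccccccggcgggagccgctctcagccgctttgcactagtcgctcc
Zbtb32: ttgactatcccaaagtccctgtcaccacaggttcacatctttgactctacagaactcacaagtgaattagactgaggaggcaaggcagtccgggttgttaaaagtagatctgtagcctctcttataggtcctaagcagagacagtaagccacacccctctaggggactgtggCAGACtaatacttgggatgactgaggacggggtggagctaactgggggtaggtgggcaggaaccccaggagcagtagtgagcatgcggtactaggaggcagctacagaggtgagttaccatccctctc
Zbtb11: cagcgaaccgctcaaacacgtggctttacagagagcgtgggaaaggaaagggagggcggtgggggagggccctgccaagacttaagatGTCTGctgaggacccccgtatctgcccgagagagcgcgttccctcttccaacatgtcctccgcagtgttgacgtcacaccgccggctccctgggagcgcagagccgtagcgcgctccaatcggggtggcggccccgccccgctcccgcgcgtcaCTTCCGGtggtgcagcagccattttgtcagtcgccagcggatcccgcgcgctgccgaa
The Zbtb7a window (chr10:81136021-81136320, plus strand) has 180 of its 300 bases under a WT-only region, 77.7% GC and 1 GGCGCC. Its listed start lies inside the gene body. The Zbtb2 window (chr10:4388059-4388358, minus strand) lies wholly under its region, has 33 CpG dinucleotides and holds none of the 3 motifs. The Zbtb32 window (chr7:30592893-30593192, minus strand) belongs to a start inside the gene body, has 163 bases under the region, holds 1 CAGAC and has only 3 CpG. The Zbtb11 window (chr16:55973554-55973853, plus strand) lies wholly under its region and holds 1 CAGAC and 1 CCGGAAG, both read from the other strand. The listed start of Zbtb11 also lies inside the gene body. The widest regions thus lay over CpG-rich windows and over 1 CpG-poor window. For contrast, Zbtb42 had no peak in any sample, although its window (chr12:112678590-112678889, plus strand) has 40 CpG and 1 GGCGCC.
Zbtb42: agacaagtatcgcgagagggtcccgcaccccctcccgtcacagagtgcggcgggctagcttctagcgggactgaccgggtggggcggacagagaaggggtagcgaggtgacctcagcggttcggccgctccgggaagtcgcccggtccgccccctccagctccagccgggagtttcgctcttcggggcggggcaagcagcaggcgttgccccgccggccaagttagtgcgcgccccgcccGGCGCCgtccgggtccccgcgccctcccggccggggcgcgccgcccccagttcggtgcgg

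Over the territories of the 40 members, WT replicate 1 had 92 peaks, WT replicate 2 had 72, KO replicate 1 had 1 and KO replicate 2 had 0, each peak counted once. These are 0.339%, 0.364%, 0.177% and 0% of the respective lists. Both WT values lay far above both KO values, as they did for the lists as a whole. A 2-sided exact permutation test of 2 samples against 2 cannot give p below 0.333, so no test was made for single members. WT replicate 1 had a peak at 36 of 40 members (90%, against 53.5% of all coding genes) and WT replicate 2 at 34 (85%, against 48.5%). Peaks in both WT samples with no KO peak were found at 32 members (80%, against 43.9% of all genes). These are not the 31 members with a WT-only region and 1 more. Zbtb3, Zbtb10 and Zbtb12 enter because peaks of the WT samples need not meet, and Zbtb1 and Zbtb25 drop out through their KO peak.

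**Figure D1:**
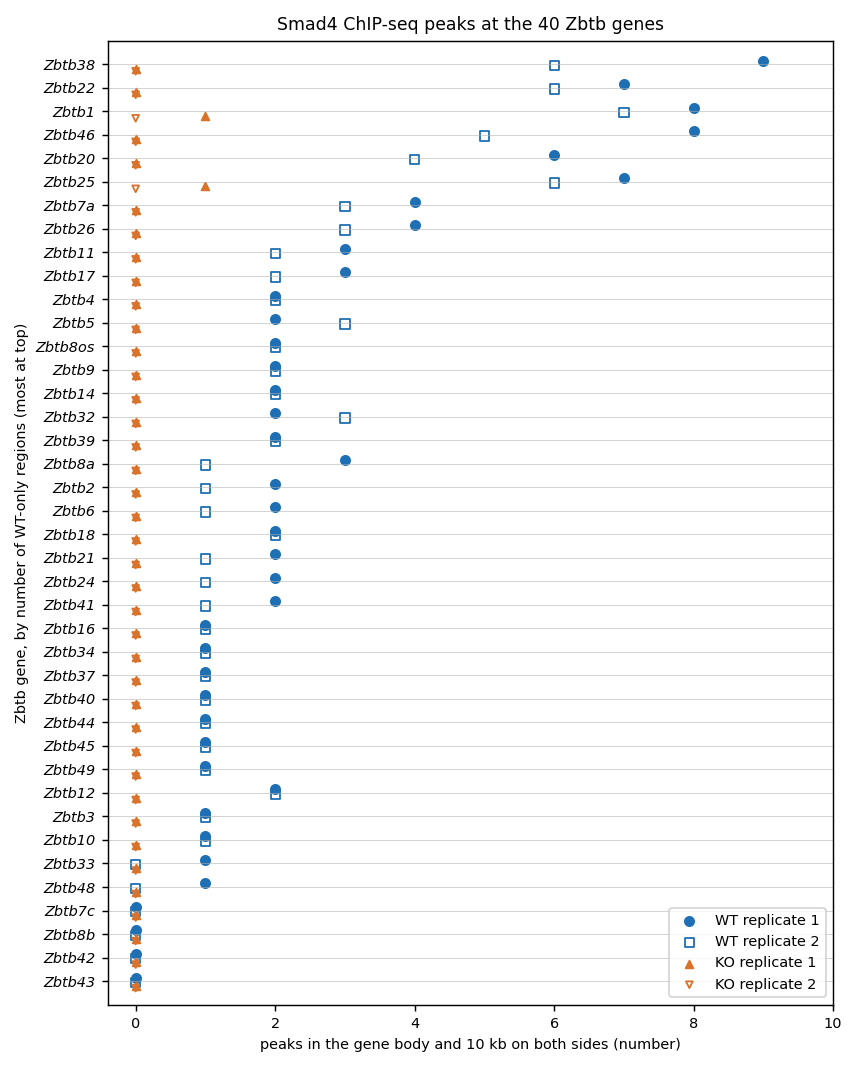
Number of peaks in the territory of each of the 40 Zbtb genes (x axis) in the 4 samples, with genes ordered by number of WT-only regions (y axis). WT values run up to 9 at Zbtb38, and the KO samples are at 0 except for 1 peak of KO replicate 1 shared by Zbtb1 and Zbtb25.

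Members with a known part in lymphocytes were all marked in WT. Each of the 8 (Zbtb1, Zbtb7a, Zbtb16, Zbtb17, Zbtb20, Zbtb24, Zbtb25 and Zbtb32) held a WT-only region, with a median of 2.5 regions against 1 over all members and 0 over all coding genes. These shares stand beside 77.5% of all members and 44.3% of all coding genes. Zbtb1 and Zbtb25 enter both the count and the median through 3 regions that they share. At a gene end, 5 of the 8 had a WT-only region, near the family's own 23 of 40, with 29.4% of all coding genes. This group was chosen with earlier results of these data known.

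Zbtb7a, which encodes LRF, a repressor of lineage genes in blood cells (chromosome 10, 81135225 to 81152222), had 4 peaks in WT replicate 1, 3 in WT replicate 2 and 0 in both KO samples. Its widest region (81136141 to 81138502) had peaks of 2264 and 2362 bp, the largest summed width of any WT-only region in the family. The region lies wholly inside the gene body, 0.916 kb from its nearer end, and begins inside the printed promoter, whose listed start is also inside the body. A second region (81146086 to 81147051) lay inside the gene and the third (81127337 to 81127881) 7.34 kb outside it. Coding genes were split by length into 10 classes of equal number, and in that of Zbtb7a 6.89% had at least 3 WT-only regions.

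Zbtb1, needed for lymphocyte development, and Zbtb25 are neighbours whose bodies meet on chromosome 12 and are read in opposite directions, so they share most of their peaks. At Zbtb1 (76370051 to 76396955) the peak numbers were 8 and 7 in WT and 1 and 0 in KO. At Zbtb25 (76348900 to 76370214) they were 7 and 6 in WT and 1 and 0 in KO. The listed starts of both genes lay under the widest reproducible region of the family (76369189 to 76371846). There WT replicate 1 had a peak of 2658 bp and WT replicate 2 one of 2516 bp. KO replicate 1 had a peak of 324 bp inside it (76369702 to 76370025), so this region is not WT-only and neither gene counts among the 23 bound at an end. KO replicate 2 had none there. WT-only regions flanked it on both sides: one of 1898 bp inside Zbtb25 (76361123 to 76363020), and 2 inside Zbtb1 (76373033 to 76374444 and 76375486 to 76375997). A further region of 382 bp beside Zbtb1 lay at an end of Hspa2, a heat-shock protein gene. The locus thus had 3 shared WT-only regions around a region over the starts that also met a KO peak.

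Zbtb32, which encodes a repressor of lymphocyte activation also known as Rog or PLZP (chromosome 7, 30589680 to 30602819), had 2 and 3 WT peaks and no KO peak. The region at its internal start (30593030 to 30595113) had 1 peak of 2084 bp in WT replicate 1 and 2 peaks, of 362 and 510 bp, in WT replicate 2. The other (30588541 to 30589928; 1250 and 1078 bp) lay over the far end. It also lay within 1 kb of an end of Kmt2b, a histone methyltransferase gene. Whether that end is the start of Kmt2b was not looked up here, and peak positions alone do not assign the region to either gene. Zbtb32 was the single member of 35 with a WT-only region at its far end.

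Zbtb20, a repressor gene active in liver, brain and plasma cells (chromosome 16, 42875689 to 43634392), is the longest member. It had 6 and 4 WT peaks, and its 4 WT-only regions include one of 1970 bp over the upstream end of the body (42874463 to 42876432; peaks of 1818 and 1636 bp). At least 4 WT-only regions were held by 12.8% of coding genes in the same length class. Zbtb17, which encodes the Myc partner Miz-1 (chromosome 4, 141444673 to 141467937), had 3 and 2 WT peaks, with a WT-only region over its start (141444423 to 141444974) and one 9.7 kb inside (141454374 to 141455091). Zbtb24, whose human counterpart is mutated in an immunodeficiency with centromere instability (chromosome 10, 41450358 to 41465582), had 2 and 1 WT peaks and 1 WT-only region, over its start (41449804 to 41450677).

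Zbtb16, the PLZF gene, was the least marked of the lymphocyte group. In a body of 184 kb (chromosome 9, 48651797 to 48836225) each WT sample had 1 peak, of 382 and 242 bp, in 1 region 88.3 kb from the nearer end (48740068 to 48740449). The width of 242 bp is the smallest in the list of WT replicate 2. Of coding genes in its length class, 48.1% had at least 1 WT-only region, so its single region is near the background.

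Among the members that bind methylated DNA, Zbtb38 held the most WT-only regions of the family. Its body (chromosome 9, 96682767 to 96731675) and flanks had 9 and 6 WT peaks, no KO peak and 6 WT-only regions, a number reached by 1.19% of coding genes in its length class. None lay at an end of the body, and 5 of the 6 lay inside it. The widest (96718873 to 96720135), with peaks of 240 and 646 bp in WT replicate 1 and 1 of 1254 bp in WT replicate 2, covered starts listed inside the body. Another 4 lay further along the gene (96696191 to 96696692, 96705475 to 96706140, 96713883 to 96714656 and 96715997 to 96716480). Zbtb4 (chromosome 11, 69765912 to 69784026) had 2 peaks in each WT sample. One region (69766043 to 69766738) lay just inside its start, and the wider one (69757759 to 69759738; 1872 and 1864 bp) lay at an end of Polr2a, the RNA polymerase II subunit gene, and of Slc35g3. Zbtb33, which encodes Kaiso and is the one X-linked member (38189793 to 38197046), had a single peak of 376 bp in WT replicate 1 over its start and none in the other samples.

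Zbtb48, which encodes the telomere-binding protein TZAP, also had 1 peak in WT replicate 1 alone, of 240 bp. Among members known from other tissues, Zbtb18, which encodes a transcriptional repressor needed for brain development, had a WT-only region of 1144 bp over its start (chromosome 1, 177441351 to 177442494). Its peaks were of 1144 and 1034 bp. Zbtb46, a marker of classical dendritic cells with a body of 122 kb, had 8 and 5 WT peaks and 4 WT-only regions, none at its own ends. Of these, 2 lay inside the gene away from other gene ends (chromosome 2, 181392617 to 181393003 and 181410620 to 181411108), and 2 lay at ends of neighbours (Arfrp1 and Zgpat; Abhd16b and Tpd52l2). In the length class of Zbtb46, 12.8% of coding genes had at least 4 WT-only regions. Peaks at a gene do not show that it is expressed, and RNA was not measured here.

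Of the other members with most regions, Zbtb22, in the major histocompatibility complex (chromosome 17, 33916176 to 33919325), is 3.15 kb long and had 7 and 6 WT peaks. Its 5 WT-only regions were matched by 0.413% of coding genes in its length class. Of the 5, 3 lay at ends of Daxx, Tapbp or Rgl2, a chaperone gene, a peptide-loading gene and a signalling gene that flank it. One of these (33915826 to 33916263) also covered the start of Zbtb22 and was the only region of the 5 to meet its body. The others (33920621 to 33921150 and 33924053 to 33924614) lay inside another coding gene, 1.3 and 4.73 kb outside Zbtb22. The high number thus counts regions of the surroundings as well. Zbtb26 held 3 WT-only regions, one over its start (chromosome 2, 37442749 to 37443210), shared with Rabgap1. Another (37422643 to 37423276) also lies in the territory of Zbtb6, where it is the single WT-only region.

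By peak width summed over both WT samples, Zbtb2 followed Zbtb7a, with 1 WT-only region over its start (chromosome 10, 4386508 to 4388451; 1944 and 1842 bp). Zbtb11 had peaks of 1534 and 1384 bp in the region over its listed start (chromosome 16, 55973489 to 55975262), which lies 2.05 kb from the nearer end of the body and so is not counted at a gene end. Zbtb14 had 2 WT-only regions near its start (chromosome 17, 69382392 to 69383586 and 69383910 to 69384282), both also near an end of Gm49894. Zbtb44 (chromosome 9, 31029614 to 31031176) and Zbtb37 (chromosome 1, 161034257 to 161035389) each had 1, over the start. Zbtb8os, the archease gene, had 2 (chromosome 4, 129334593 to 129336358 and 129336520 to 129336956), the wider one shared with an end of Rbbp4. Members not yet named with 1 or 2 WT-only regions were Zbtb5, Zbtb8a, Zbtb9, Zbtb21, Zbtb34, Zbtb39, Zbtb40, Zbtb41, Zbtb45 and Zbtb49, with region widths from 252 bp at Zbtb39 to 915 bp at Zbtb41.

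A WT-only region was missing at 9 members, and these were not alike. Zbtb7c, Zbtb8b, Zbtb42 (a muscle gene) and Zbtb43 had no peak in any sample, and Zbtb33 and Zbtb48 had 1 peak of WT replicate 1. At Zbtb12 each WT sample had a peak over or beside the start (chromosome 17, 34894723 to 34895024 in WT replicate 1 and 34894204 to 34894645 in WT replicate 2), but they missed each other by 77 bp. A second pair beside Ehmt2 missed by 41 bp. At Zbtb3 the WT peaks missed by 12 bp, beside Polr2g, while those of Zbtb10 lay 4.75 kb apart. Absence of a WT-only region at Zbtb12 and Zbtb3 therefore rests on the rule that peaks must meet.

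More members had a region at a start than at the far end. RefSeq start positions were listed for 35 members, all but Zbtb7c, Zbtb10, Zbtb16, Zbtb40 and Zbtb48. A WT-only region lay within 1 kb of a listed start in 23 of the 35 (65.7%, against 30.3% of 17492 coding genes with an entry), and within 1 kb of the far end in 1 (2.86%, against 3.18%). The promoter window itself was met in 21 (60%, against 28.1%). Of the 58 WT-only regions of these genes, 23 (39.7%) had their centre within 1 kb of a member's start. Listed starts can lie inside the body, as at Zbtb7a, Zbtb11, Zbtb32 and Zbtb38. Regions there enter the counts at gene ends only if they lie within 1 kb of an end of the body, as at Zbtb7a.

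**Figure D2:**
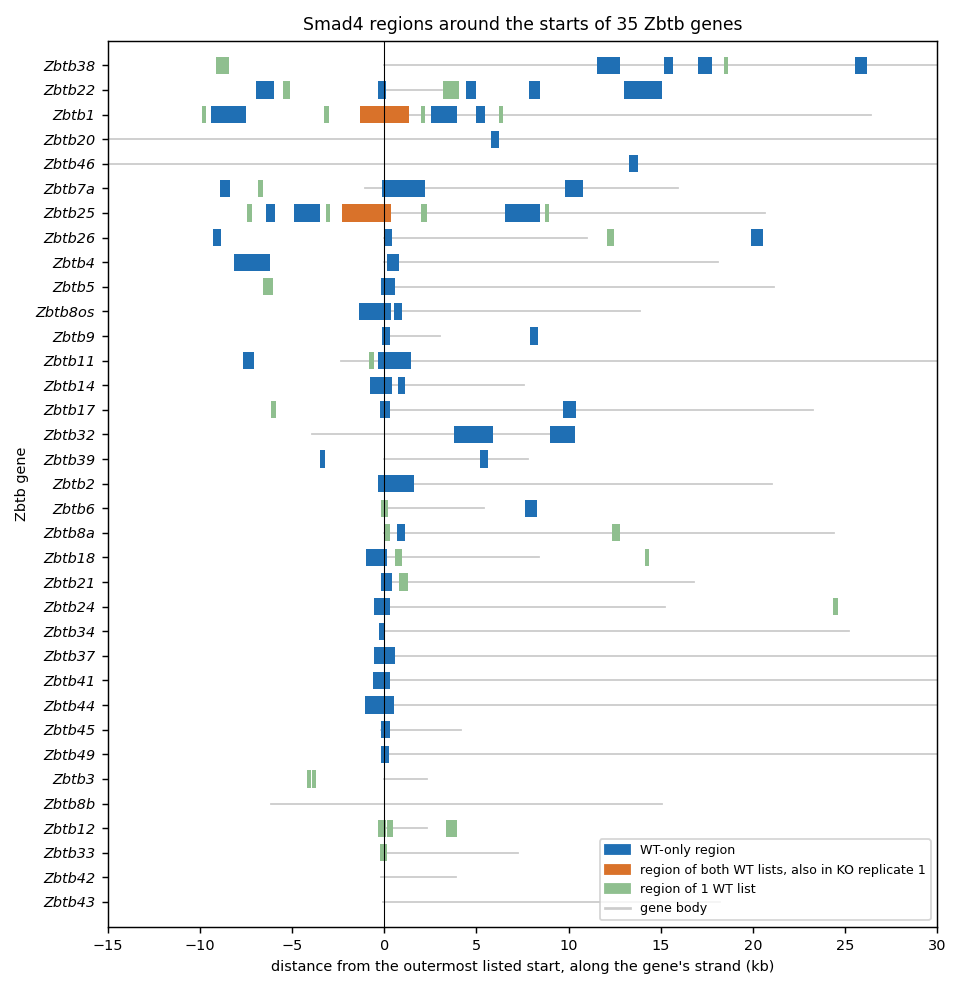
Regions around the outermost listed start of 35 Zbtb genes (y axis, by number of WT-only regions), with distance along the gene's strand in kb (x axis). Blue bars are WT-only regions and stand at the start of many genes, orange marks the region of Zbtb1 and Zbtb25 that KO replicate 1 shares, green bars are peaks of 1 WT sample, and grey lines are gene bodies.

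The promoters of the family are rich in CpG, a feature the choice of members did not use. The median ratio of observed to expected CpG in the outermost window was 0.847 over 35 members and 0.577 over all 17492 genes, and 30 of the 35 lay above the median of all genes. Over genes in the same of 10 classes of CpG ratio, 61.9% had a WT-only region in the territory, against 29 of the 35 members (82.9%). For the promoter window the shares were 46.2% and 60%. The CpG background was thus higher than the length background and closer to the members' share. Within the family the median of the outermost window was 0.847 both in the 21 members with a WT-only region over any listed window and in the 14 without. The spread differed, from 0.428 at Zbtb32 to 1.03 at Zbtb18 and Zbtb44 in the 21. In the 14 it ran from 0.052 at Zbtb46 to 1.15 at Zbtb33. The 14 include Zbtb1 and Zbtb25, whose region over the starts also met a KO peak. They also include Zbtb20 and Zbtb46, whose outermost listed starts lie far inside the body, so their CpG values do not describe its upstream end. At Zbtb20 a WT-only region lay over that end.

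Motif matches were counted on both strands in the outermost window of each gene. CCGGAAG, the ETS motif, was present in 11 of 35 members (31.4%, against 11.9% of all windows). It stood in 8 of the 19 windows under a WT-only region and in 3 of the 16 others, and in 24.3% of all 4734 coding-gene windows under a WT-only region. CAGAC was present in 17 members (48.6%, against 48.8%), in 8 of 19 windows under a region and 9 of 16 others. GGCGCC was present in 10 (28.6%, against 15.4% of all windows and 25.6% of those under a WT-only region), in 5 of 19 windows under a region and 5 of 16 others. CACGTG, the E-box, was present in 5 (14.3%, against 7.91% and 11.7%), in 4 of 19 and 1 of 16. TGANTCA, the AP-1 motif, and TTCNNNGAA, a STAT motif, were each present in 1 (2.86%, against 7.03% and 7.78%), and the palindrome GTCTAGAC in none (0.212% of all windows). No motif listed here contains another. These windows cover a small part of most regions.

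The 60 distinct WT-only regions of the family were 252 to 2362 bp wide, with a median of 598 bp, against 644 bp over all 15882 WT-only regions. Above the 90th percentile of all WT-only regions (1394 bp) lay 11 of the 60 (18.3%). By the centre of the region, 31 of 60 lay at a gene end of any coding gene (51.7%, exact 95% interval 38.4% to 64.8%), 25 inside a gene (41.7%, 29.1% to 55.1%) and 4 outside genes (6.67%, 1.85% to 16.2%). Over the 12948 WT-only regions in the territory of any coding gene, these shares were 41.3%, 46.9% and 11.8%. The intervals cover counting error only, and neighbouring regions are not independent. The interval at gene ends holds 41.3%, so a difference was not detectable with 60 regions.

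Agreement between the WT samples was similar to the rest of the lists. Merging gave 99 distinct regions over the territories, of which 61 (61.6%) held peaks of both WT samples, against 55.5% of all 29750. Of the 38 regions of a single sample, 29 were in WT replicate 1 alone and 9 in WT replicate 2 alone, in the order of their list lengths. Where a sample had several peaks in a region, as it did in 5 of the 60, their widths were added. The widths of both samples in the 60 regions had a Spearman correlation of 0.78 (0.73 over all WT-only regions), across regions, which share libraries and are not replicates. The width was larger in WT replicate 1 in 40, larger in WT replicate 2 in 19 and equal in 1.

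**Figure D3:**
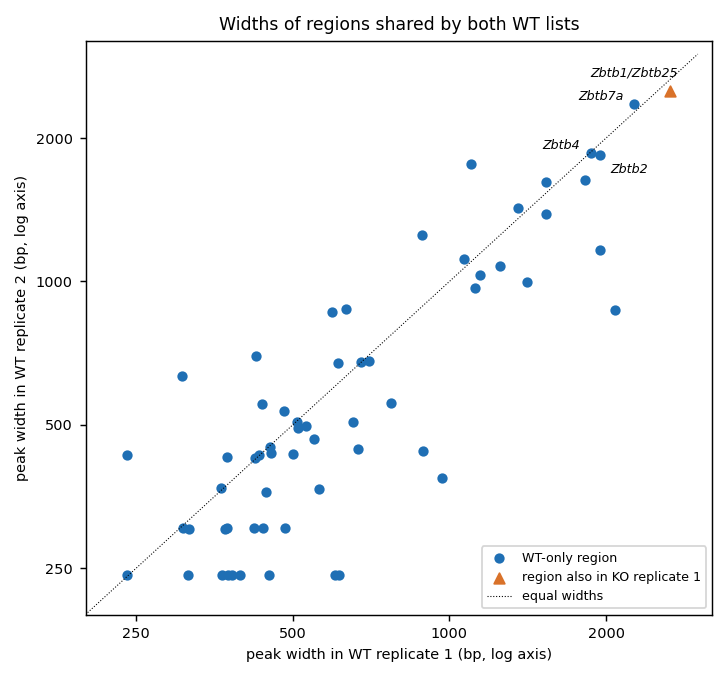
Peak width, added where a sample has several peaks, of each region shared by both WT samples at Zbtb genes, in WT replicate 1 (x axis) and WT replicate 2 (y axis), in bp on log axes, with a dotted line at equal widths. The widest, at 2658 and 2516 bp, is the region at Zbtb1 and Zbtb25 that is also called in KO replicate 1, and a row of points sits at 242 bp, the smallest width in WT replicate 2.

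In the territory, shares above the background were seen at short and long lengths. Members fell into 9 of the 10 length classes, and in each of the 9 the share of members with a WT-only region lay above that of all coding genes. It was 2 of 5 against 35.5% in class 2 (bodies of 1.56 to 4.22 kb) and 5 of 5 against 47.8% in class 5 (11.7 to 17.2 kb). In the longest, class 10, it was 3 of 4 against 48.1%. At gene ends the share lay below that of all coding genes in class 8 (1 of 3 against 37.1%) and class 10 (1 of 4 against 26%). It lay above in the other classes with members. Members averaged 1.6 WT-only regions, and coding genes of the same length classes 0.86. Each class holds few members, at most 8, and class 9 holds 1.

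**Figure D4:**
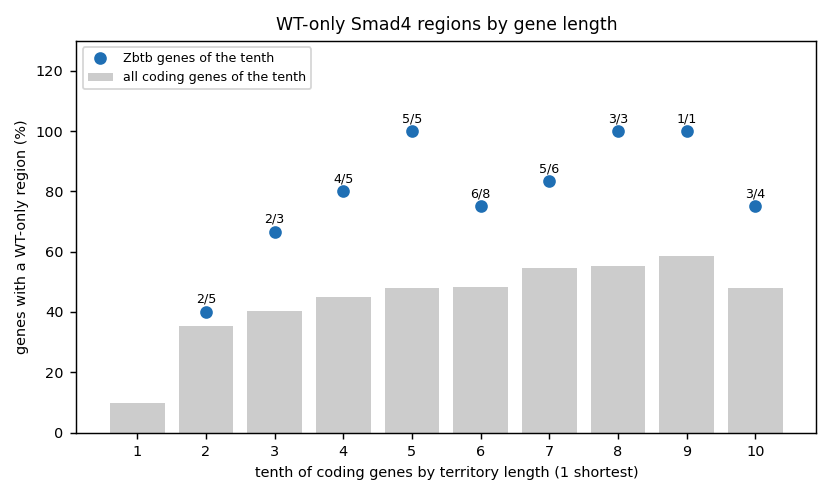
Share of genes with a WT-only region (y axis, %) by length class, from 1 for the shortest to 10 for the longest coding genes (x axis), as bars for all coding genes and points for Zbtb genes, with the number of members beside each point. Points lie above the bars in the 9 classes with members, by least in class 2.

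Relatives outside the member list gave shares in the territory like those of the members. They were the BTB zinc-finger genes Bcl6, Bcl6b, Patz1, Hic1, Hic2, Gzf1, Mynn and Zfp131, together with Zbtb7b, which the choice of members left out. Of these 9, 7 (77.8%) had a WT-only region, against 48.3% at the same lengths. With the gene body alone the count was 5 of 9 (55.6%), against 37.1% at the same lengths and 75% of the Zbtb genes. Of the 8 with a promoter entry, 6 (75%) had one in the territory, against 58.7% of genes of the same CpG classes. Zbtb7b, the ThPOK gene, had 6 and 4 WT peaks, no KO peak and 3 WT-only regions. Bcl6 had 5 peaks in each WT sample and 4 WT-only regions, and Bcl6b and Patz1 had 2 WT-only regions each. Hic1, a tumour-suppressor gene, had 7 and 6 WT peaks, 1 peak in each KO sample and 4 WT-only regions. Mynn and Zfp131 had 1 WT-only region each, with 1 peak of KO replicate 1 at Zfp131. Hic2 had 1 peak of WT replicate 1, and Gzf1 had 3 and 1 WT peaks that gave no WT-only region.

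The listed partners that BTB domains recruit were each marked in the territory. In a list of co-repressor genes (among them Ncor1, Bcor and Sin3a), deacetylase genes (Hdac3, Hdac4, Hdac5 and Hdac7) and the ligase scaffold gene Cul3, 9 of 9 held a WT-only region in the territory, against 51.6% of coding genes of the same lengths. With the gene body alone the count was 8 of 9, against 45.6%. Of the 7 with a promoter entry, 7 held one in the territory, against 59.7% of genes of the same CpG classes. Bcor, on X and 124 kb long, had 12 and 11 WT peaks and 8 WT-only regions. Hdac4, 267 kb long, had 16 peaks in each WT sample, 1 in KO replicate 2 and 14 WT-only regions. How many coding genes of such lengths held as many was not counted. Ncor1 held 3, Sin3a 3, Hdac3 1, Hdac5 2 and Cul3 2 WT-only regions, without a KO peak. Hdac7 held 4, with 1 peak in each KO sample.

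Families that share 1 domain with the members stayed near the background in the territory and at gene ends. Of the 37 Klhl genes, which carry a BTB domain with Kelch repeats and no zinc fingers, 16 (43.2%) had a WT-only region, against 49.4% at the same lengths. Of the 396 genes named Zfp and a number, zinc-finger genes that mostly lack a BTB domain, 180 (45.5%) did, against 48.8%. At gene ends the counts were 12 of 37 Klhl genes (32.4%, against 32.5% at the same lengths) and 124 of 396 Zfp genes (31.3%, against 33.2%). There 29.4% of all coding genes and 57.5% of the Zbtb genes had a WT-only region. The differences between families were not tested, and the families differ in promoter CpG as well. Among genes with a promoter entry, the share in the territory was 41.9% of the Klhl genes, against 48.6% of genes of the same CpG classes. It was 43% against 48.7% for the Zfp genes and 82.9% against 61.9% for the Zbtb genes. For the promoter window the Klhl share lay above its CpG background (38.7% against 31.5%), and the Zfp share was 31.5% against 29.9%.

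**Figure D5:**
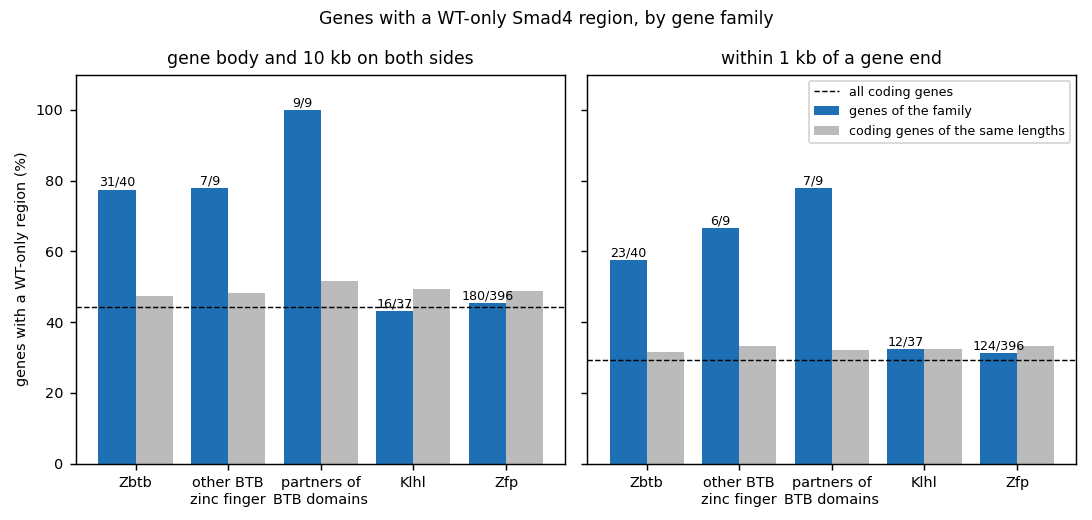
Share of genes with a WT-only region (y axis, %) in 5 gene families (x axis), in the territory (left) and within 1 kb of a gene end (right), as blue bars beside grey bars for coding genes of the same lengths, with a dashed line at all coding genes. Zbtb genes stand at 77.5% and 57.5%, and Klhl and Zfp genes near the line.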

How the data were processed

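The authors deposited 1 peak list per ChIP sample, holding chromosome, start and end alone. The build was mm10, per the submitters' processing notes, which also list HOMER 4.8.3, Bowtie and Trim Galore without their roles. Not given in the sources used here: thresholds, use of the input, read depth. Starts were shifted to 1-based positions. Gene bounds came from RefSeq for GRCm38.p6, the assembly mm10 stands for, with 21900 protein-coding genes; 21779 were used, without genes that start below 3 Mb on chromosomes other than Y, where scaffold positions stand under a chromosome name. The table has no strand; strand and starts came from the RefSeq promoter table, with an entry for 35 members. Shares at the same length are the mean, over members, of the share of coding genes called in the member's class of 10 equal classes by length; CpG shares were formed alike, after the data were seen. No list was resampled and no set test was made. A planned count of zinc fingers in proteins was not run.

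The members and gene lists were chosen with earlier results of these data known. The rule for named genes took the 10 members with most WT-only regions, the 8 with the widest, each member with a KO peak or without a WT peak, those with a known role in lymphocytes, on methylated DNA, at telomeres or in other tissues, and Zbtb8os, and each gene of the lists of relatives and partners, of which 1 is not reported here; other members named were chosen after their values were seen. Overlap and gene counting were tested on simulated intervals. Alternatives tried were the region centre in place of any overlap, the body alone or 50 kb of flank, gene ends of 5 kb, the nearest gene, WT peaks that share 50% of both, no KO peak within 1 kb, wide regions alone, each sample left out, the replicate block, autosomes, the members without Zbtb8os or with Zbtb7b, and 20 length classes. Software was Python 3.11.15, numpy 2.4.6, pandas 2.3.3, SciPy 1.17.1 and matplotlib 3.10.9.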

Additional observations from a re-analysis of the deposited data

How the results depend on the processing

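The count of 31 members with a WT-only region in the territory ran from 28 to 37 over the other settings, always above the background of all coding genes at that setting, except that it fell to 20 (50%, against 29.1% of all genes) with the WT-only regions of at least median summed width alone. There the gene-end count fell from 23 to 13 (18.9% of all genes), the Zfp count from 180 to 108 and the number of regions from 60 to 27; this setting has fewer regions by construction, as have the peaks above the median width of their list, 46 and 37 in WT replicates 1 and 2 in place of 92 and 72. With 50 kb on both sides the Klhl genes rose from 16 to 25, the regions to 107 and the WT peaks to 169 and 131. With the gene body alone WT replicate 2 had 47 peaks, and 1 member had a KO peak. Leaving out 1 sample gave 31 to 36 members, 23 to 26 at a gene end and 60 to 91 regions, the last without WT replicate 2, where the set rests on WT replicate 1. Without KO replicate 1 no member had a KO peak (0), and Zbtb1 and Zbtb25 joined the gene-end count, which became 25; without KO replicate 2 there were 2. In the replicate block, with each WT sample set against the KO sample of its number, the values were 31, 23 and 60; the numbers are not known to pair the samples. Added after the data were seen, leaving out regions near another gene's end gave 29 members (32.7% of all genes) and 16 at a gene end (20.2%), and members with meeting territories counted once gave 28 of 36 places. The lists carry no score or depth, so a missing peak does not show missing binding.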

Other observations

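Of the 60 WT-only regions at Zbtb genes, 17 lay within 1 kb of an end of a coding gene other than the member whose territory held them. The widest of these by summed peak width lay at Polr2a beside Zbtb4 (chromosome 11, 69757759 to 69759738), at Tapbp and Rgl2 beside Zbtb22 (chromosome 17, 33929170 to 33931250; 1 peak of 1948 bp in WT replicate 1 and 2 of 718 and 444 bp in WT replicate 2) and at Rbbp4, which encodes a histone-binding chaperone, beside Zbtb8os. Rpl24, a ribosomal protein gene, had one beside Zbtb11 (chromosome 16, 55966132 to 55966714), Grhpr one beside Zbtb5 (chromosome 4, 44981193 to 44981742) and Lyar one at the start of Zbtb49 (chromosome 5, 38220191 to 38220622). Peak positions alone do not tell which gene of such a pair a region belongs to.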
